A study of Mus musculus with 6 samples.

Results

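The KIT, PI3K and mTOR growth pathway was followed in mouse oocytes through 9 genes: Kit, Pdpk1, Akt1, Akt2, Foxo3, Tsc1, Tsc2, Mtor and Rps6kb1. The genes were taken by name from a deposited table of 49315 genes, and all 9 were present and passed the filter on low counts, which left 16060 tested genes. The RNA came from oocytes at full size and at the germinal vesicle (GV) stage, when the large nucleus has not yet broken down before the meiotic divisions. In the Rpa1 oocyte-specific conditional knockout (OcKO, 3 mice), the gene for the large subunit of the single-stranded DNA binding protein RPA is deleted in oocytes, and the Control group held 3 mice. All 6 mice were 4 to 5 weeks old and had been primed with PMSG, a gonadotropin that makes follicles grow, and each library came from 1 mouse and about 20 oocytes freed of cumulus cells. The Cre driver, the floxed allele, the strain and the genotype of the Control mice are not named in the labels. Only oocytes that had reached full size were sampled, so the stages at which follicles are activated and oocytes grow were not measured.

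KIT is a receptor tyrosine kinase on the oocyte surface, and its ligand is made by the granulosa cells around the oocyte. The active receptor recruits PI3K, which makes the lipid signal that brings PDK1 (the product of Pdpk1) and AKT together at the membrane. AKT then phosphorylates FOXO3, which leaves the nucleus and no longer holds the primordial follicle at rest, and the TSC complex, which no longer restrains mTORC1 and its substrate S6 kinase. Most of these steps are changes in phosphorylation and position of proteins, which RNA levels do not show.

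Promoters of Kit, Foxo3 and Mtor are printed because they belong to the head and the ends of the route: the receptor, the transcription factor and the growth kinase. The sequences are RefSeq's, from 250 bases before to 50 bases after the transcript start on the gene's own strand (GRCm38.p6), at the most upstream start listed; capitals mark GC boxes, GGGCGG on either strand.
Kit promoter, chr5:75574737-75575036, plus strand: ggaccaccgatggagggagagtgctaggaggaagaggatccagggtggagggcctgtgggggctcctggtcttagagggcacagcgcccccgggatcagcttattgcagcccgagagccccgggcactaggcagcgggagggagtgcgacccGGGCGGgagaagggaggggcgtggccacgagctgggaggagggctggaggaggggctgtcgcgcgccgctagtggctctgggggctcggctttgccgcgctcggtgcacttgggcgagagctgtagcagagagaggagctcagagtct
Foxo3 promoter, chr10:42276646-42276945, minus strand: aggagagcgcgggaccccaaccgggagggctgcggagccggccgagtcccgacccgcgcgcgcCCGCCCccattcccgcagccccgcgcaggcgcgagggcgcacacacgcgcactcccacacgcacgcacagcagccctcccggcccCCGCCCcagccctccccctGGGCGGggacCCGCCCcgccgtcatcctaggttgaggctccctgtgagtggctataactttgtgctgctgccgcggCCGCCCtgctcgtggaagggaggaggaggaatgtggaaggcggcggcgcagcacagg
Mtor promoter, chr4:148448332-148448631, plus strand: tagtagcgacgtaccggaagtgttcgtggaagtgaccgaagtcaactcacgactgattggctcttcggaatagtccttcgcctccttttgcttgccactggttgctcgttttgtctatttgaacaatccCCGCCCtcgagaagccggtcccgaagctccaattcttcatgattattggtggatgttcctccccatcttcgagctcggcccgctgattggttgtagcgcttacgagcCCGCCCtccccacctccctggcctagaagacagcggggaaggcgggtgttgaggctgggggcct
The Foxo3 window held 5 GC boxes, the Mtor window 2 and the Kit window 1. Of all 32851 promoter windows in the RefSeq table, which lists several for some genes, 35.7% held at least 1 GC box. Of the most upstream windows of the 9 pathway genes, 4 did (Kit, Akt2, Foxo3 and Mtor). Pdpk1 and Akt1 each had another listed window, at a start further downstream, that held 5 GC boxes. The share of G and C was 75% in the Foxo3 window, 69% in the Kit window and 56.7% in the Mtor window, against a median of 52.7% over all windows. The forkhead site GTAAACA, bound by FOXO factors, was searched on both strands and occurred in 3.65% of all windows. Among the most upstream windows of the 9 genes it occurred in 1, in that of Akt1, and it was absent from the other window listed for Akt1. The E-box CACGTG (7.15% of all windows) and the cAMP response element TGACGTCA (1.79%) were in none of the 9.

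The libraries held 36280148 to 44575222 counts, so that 1 count was worth 0.0224 to 0.0276 CPM (counts-per-million of the library's total) before the TMM scaling used for all levels here. Rpa1 was at 4.14 to 7.76 CPM in OcKO and at 140 to 156 CPM in Control (log2 fold change -4.59, SE 0.31, edgeR adjusted p = 0.0064). Oocyte markers led in both groups: the 15 genes of the marker list summed to 34338, 39502 and 44545 CPM (lowest, median and highest) in OcKO and 41012, 45978 and 65021 CPM in Control. Markers of granulosa and cumulus cells summed to 93.1 to 109 CPM in OcKO and 66.3 to 112 CPM in Control. Over all 6 libraries, the 11 genes of that list ran from 4 counts of Foxl2 and 55 of Amh to 5972 of Cyp19a1 and 6663 of Nr5a2. Markers of endothelium summed to 148 to 238 CPM in OcKO and 111 to 166 CPM in Control. The genes of the endothelium list ran from 1 count of Cdh5 to 12693 of Tek and 24240 of Pecam1. The part of granulosa, cumulus or endothelial cells in the results was not tested. Markers of mast cells, which also carry KIT, summed to 1.21 CPM at most in OcKO and 0.202 CPM at most in Control, and 3 of the 6 mast cell markers (Mcpt4, Cma1 and Tpsb2) had no counts. The OcKO libraries had 19915 to 22393 genes with a count, against 18330 to 19351 in Control. In pools of oocytes, a lower level per oocyte and fewer oocytes carrying the transcript cannot be told apart.

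None of the 9 genes was called as higher or lower in OcKO by the quasi-likelihood test of edgeR (adjusted p under 0.05 over all tested genes), where 0.143% of all tested genes were called (0.137% higher and 0.00623% lower). At an unadjusted p under 0.05 the count was also 0 of 9, against 11.1% of all tested genes (5.93% higher and 5.21% lower). The OcKO and Control libraries overlapped for all 9, while 19.4% of tested genes did not overlap (10.7% with OcKO above and 8.67% with OcKO below). DESeq2, which called 4.84% of all genes with an adjusted p, and limma voom, which called 0.00623%, also called 0 of the 9 and gave 0 of the 9 an unadjusted p under 0.05. The smallest adjusted p belonged to Pdpk1, at 0.543. The log2 fold changes lay between -0.54 for Kit and -0.01 for Tsc1, with a median of -0.26 beside a median of 0.01 for all tested genes. All 9 were below 0 with the main scaling, as were 7908 of the 16060 tested genes. Tsc1, however, was above 0 with library size alone, with RLE size factors, with DESeq2 and at a minimum mean of 5 CPM. With library size alone the median of all tested genes rose by 0.17, to 0.18, and that of the 9 genes was -0.10. The design bounds these changes only loosely: the 95% intervals reach from 0.376 to 1.73 times the Control level over the 9 genes.

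**Figure D1:**
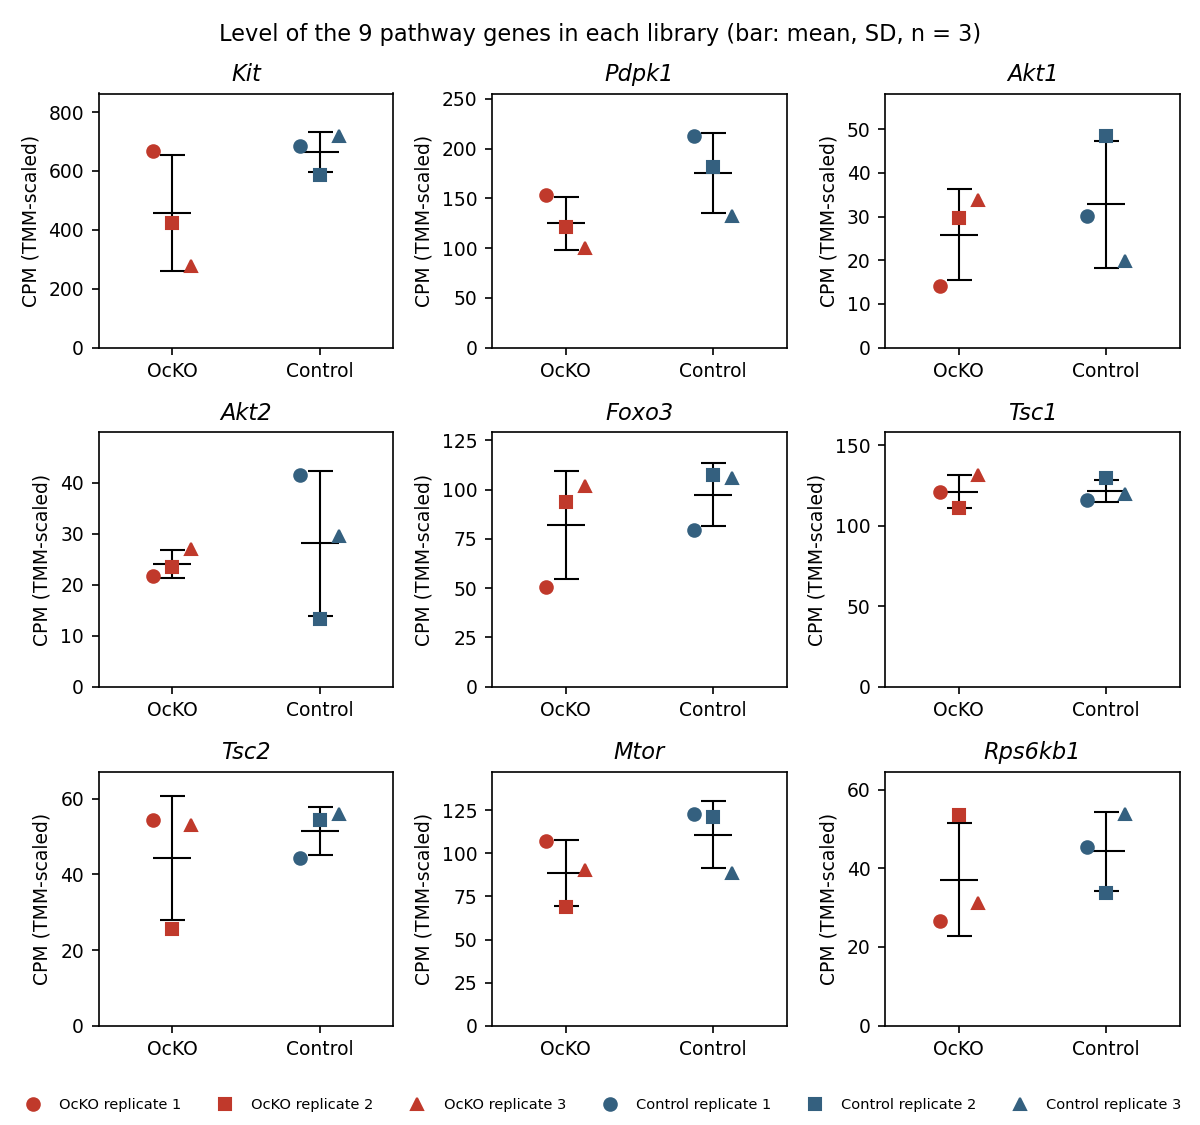
Level of each of the 9 genes in CPM (TMM-scaled, vertical axes from 0) in the 3 OcKO and the 3 Control libraries; points are libraries, the long tick is the mean and bars are the SD. The OcKO and Control libraries overlap in every panel, with Kit spread from 277 to 669 CPM in OcKO and Tsc1 held between 111 and 132 CPM over all libraries.

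Kit (ENSMUSG00000005672, chromosome 5, 75574916 to 75656722, plus strand, GRCm38) encodes the receptor. It stood at 669, 424 and 277 CPM in OcKO replicates 1 to 3 and at 686, 587 and 719 CPM in Control replicates 1 to 3. OcKO replicate 1 was within the Control range, while OcKO replicates 2 and 3 lay below every Control library. The means were 457 ± 198 CPM in OcKO and 664 ± 68.6 CPM in Control (SD, n = 3 each). By edgeR the log2 fold change was -0.54, with an SE of 0.31 and an adjusted p of 0.605. The 95% interval of the fold ran from 0.417 to 1.14. The coefficient of variation was 43.4% in OcKO and 10.3% in Control, while the counting error of the lowest library was 0.943%. Without OcKO replicate 1 the log2 fold change was -0.93 (adjusted p = 0.246), and without OcKO replicate 3 it was -0.28 (adjusted p = 0.840).

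Pdpk1 (ENSMUSG00000024122, chromosome 17, 24073680 to 24150924, minus strand) encodes PDK1, the kinase that switches on AKT and S6 kinase by phosphorylating their activation loops. It stood at 153, 122 and 100.1 CPM in OcKO and at 213, 181 and 132 CPM in Control. Control replicate 3 lay within the OcKO range, and the other Control libraries lay above all OcKO libraries. The means were 125 ± 26.8 CPM in OcKO and 175 ± 40.6 CPM in Control (SD, n = 3 each). By edgeR the log2 fold change was -0.49, with an SE of 0.25, an adjusted p of 0.543 and a fold interval of 0.476 to 1.07. Over the 6 fits that leave out 1 library, the log2 fold change stayed between -0.67 and -0.33, and the adjusted p was 0.349 at the lowest.

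Akt1 and Akt2 encode forms of the AKT kinase; Akt1 is best known for growth and survival and Akt2 for the response to insulin. Akt1 (ENSMUSG00000001729, chromosome 12, 112653821 to 112674884, minus strand) stood at 14.1, 29.7 and 33.8 CPM in OcKO and at 30.1, 48.5 and 19.8 CPM in Control. Both groups spread widely, with the lowest library in OcKO and the highest in Control. The log2 fold change was -0.34 (SE 0.46, edgeR adjusted p = 0.866), with a fold interval of 0.376 to 1.65, and it was 0.08 without Control replicate 2. Akt2 (ENSMUSG00000004056, chromosome 7, 27591552 to 27640826, plus strand) stood at 21.8, 23.4 and 27.0 CPM in OcKO and at 41.5, 13.2 and 29.5 CPM in Control. The OcKO libraries all lay between the lowest and the highest Control library, and the coefficient of variation was 11.1% in OcKO and 50.7% in Control. The log2 fold change was -0.22 (SE 0.43, adjusted p = 0.915), with a fold interval of 0.426 to 1.73, and it was 0.17 without Control replicate 1. Control replicate 2 held the highest level of Akt1 and the lowest of Akt2 among the 6 libraries.

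Foxo3 (ENSMUSG00000048756, chromosome 10, 42181841 to 42276755, minus strand) encodes the transcription factor that AKT keeps out of the nucleus and that holds primordial follicles dormant. It stood at 50.8, 93.7 and 102 CPM in OcKO and at 79.3, 108 and 106 CPM in Control. OcKO replicate 1 was the lowest of the 6 libraries, and the other OcKO libraries lay within the Control range. The means were 82.1 ± 27.4 CPM in OcKO and 97.6 ± 15.8 CPM in Control (SD, n = 3 each; edgeR log2 fold change -0.25 with an SE of 0.30, adjusted p = 0.842; fold interval 0.520 to 1.36). Without OcKO replicate 1 the log2 fold change was close to 0 (-0.0048).

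TSC1 and TSC2 form the complex that switches off the small GTPase RHEB; TSC1 stabilizes TSC2, which carries the GTPase-activating domain. Tsc1 (ENSMUSG00000026812, chromosome 2, 28641228 to 28691167, plus strand) stood at 121, 111 and 132 CPM in OcKO and at 116, 129 and 120.1 CPM in Control. It was the steadiest of the 9 genes, with coefficients of variation of 8.55% in OcKO and 5.71% in Control. Its log2 fold change was -0.01 (SE 0.17, edgeR adjusted p = 0.995), and the fold interval of 0.756 to 1.31 was the narrowest of the 9. Tsc2 (ENSMUSG00000002496, chromosome 17, 24595937 to 24632629, minus strand) stood at 54.4, 25.5 and 53.0 CPM in OcKO and at 44.3, 54.5 and 56.0 CPM in Control. OcKO replicate 2 stood below all other libraries, and the other OcKO libraries lay within the Control range. The log2 fold change was -0.22 (SE 0.33, adjusted p = 0.889; fold interval 0.503 to 1.47), and it was 0.10 without OcKO replicate 2. Of the exonic bases of Tsc2, 9.6% overlap those of Pkd1 on the opposite strand, and whether reads were counted by strand is not stated in the labels. Pkd1 held 1875 counts over the 6 libraries and Tsc2 held 11313.

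Mtor (ENSMUSG00000028991, chromosome 4, 148448611 to 148557683, plus strand) encodes the kinase shared by mTORC1 and mTORC2. It stood at 107, 69.0 and 90.1 CPM in OcKO and at 123, 121 and 88.4 CPM in Control. Control replicate 3 lay within the OcKO range. The means were 88.8 ± 19.2 CPM in OcKO and 111 ± 19.4 CPM in Control (SD, n = 3 each; edgeR log2 fold change -0.32 with an SE of 0.24, adjusted p = 0.722; fold interval 0.544 to 1.18). Without OcKO replicate 2 the log2 fold change of Mtor was -0.13. Rps6kb1 (ENSMUSG00000020516, chromosome 11, 86498871 to 86544805, minus strand) encodes S6 kinase 1, which mTORC1 activates and which phosphorylates ribosomal protein S6. It stood at 26.6, 53.4 and 31.1 CPM in OcKO and at 45.4, 33.8 and 53.8 CPM in Control. OcKO replicates 1 and 3 lay below every Control library and OcKO replicate 2 lay near the top of the Control range. The log2 fold change was -0.26 (SE 0.35, adjusted p = 0.866; fold interval 0.477 to 1.46), with -0.07 when OcKO replicate 1 was left out and -0.58 when OcKO replicate 2 was. Exons of Rps6kb1 overlap those of Rnft1 on the opposite strand over 1.79% of their bases. Rnft1 held 6302 counts over all libraries and Rps6kb1 held 9654.

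**Figure D2:**
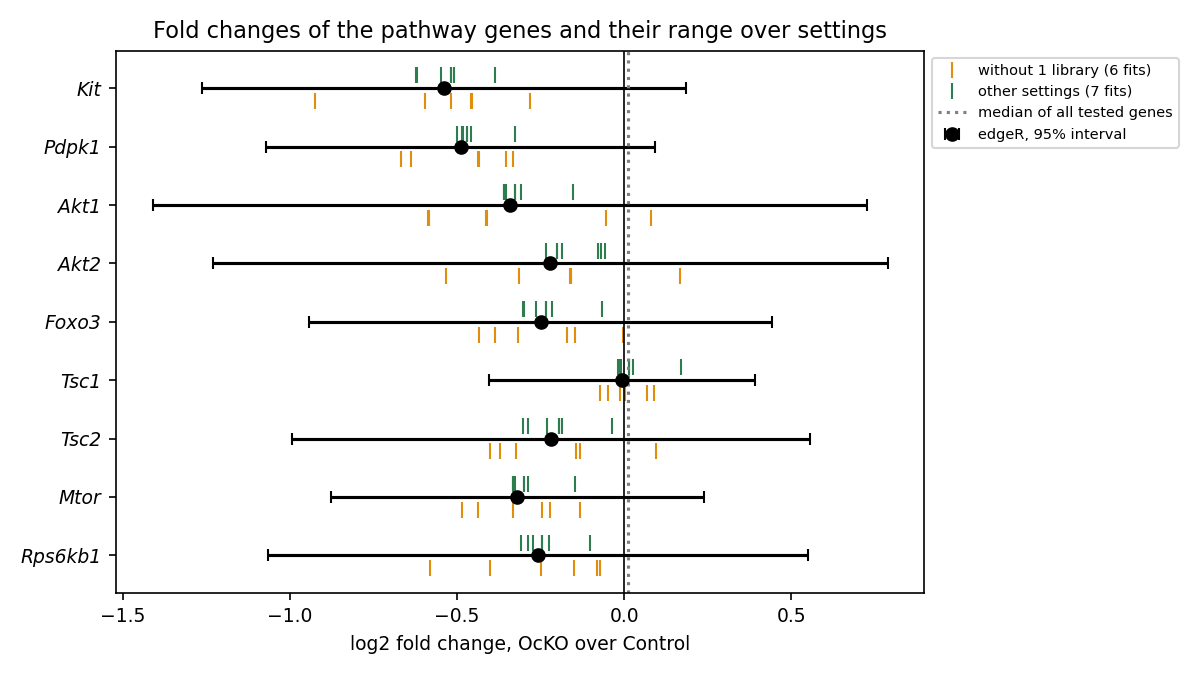
Log2 fold change of each gene, OcKO over Control, on the horizontal axis, with its 95% interval from edgeR (black); ticks below each point are the 6 fits without 1 library and ticks above it the 7 other settings, and the dotted line is the median of all tested genes. Every interval spans 0, and the ticks of Akt1, Akt2, Tsc1 and Tsc2 fall on both sides of 0.

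The 9 genes did not share a low library. Relative to each gene's mean over the 6 libraries, OcKO replicate 1 was the lowest for Akt1, Foxo3 and Rps6kb1, OcKO replicate 2 for Tsc1, Tsc2 and Mtor, and OcKO replicate 3 for Kit and Pdpk1. Control replicate 2 was the lowest for Akt2. A Control library was the highest for 8 of the 9 genes, and OcKO replicate 3 for Tsc1. No share over all tested genes is given beside this count, so it is a description only. In OcKO replicate 1, Kit was at 0.33 and Foxo3 at -0.78 on this log2 scale, while in OcKO replicate 3 Kit was at -0.94 and Foxo3 at 0.22.

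**Figure D3:**
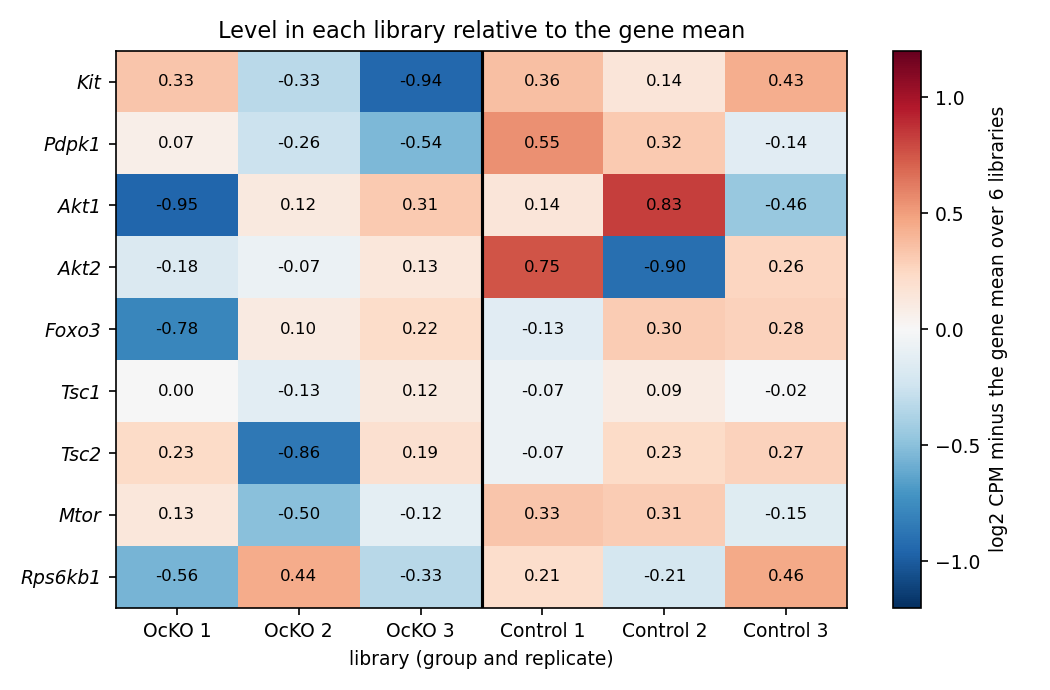
Log2 CPM of each gene (rows) in each library (columns) minus the gene's mean over the 6 libraries, OcKO left of the line and Control right of it; red is above the mean and blue below. Low values fall in different OcKO libraries for different genes, such as -0.94 for Kit in OcKO replicate 3 and -0.95 for Akt1 in OcKO replicate 1.

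Levels of different genes were compared as RPKM, here the scaled CPM per kilobase of exon. Kit had the highest level of the 9, at 75.1, 47.6 and 31.1 RPKM in OcKO and 76.9, 65.9 and 80.7 RPKM in Control, and stood at percentile 94.0 of all tested genes by mean RPKM. It lay above Pdpk1, the next gene, in all 6 libraries, and the ranges of both genes did not overlap in either group. Below Kit came Pdpk1 (11.4 ± 2.45 RPKM in OcKO and 16.0 ± 3.71 RPKM in Control, SD, n = 3 each), Foxo3, Tsc1, Mtor, Tsc2, Akt1, Rps6kb1 and Akt2 (3.38 ± 0.376 RPKM in OcKO and 3.94 ± 1.99 RPKM in Control). Each pair of neighbours in that order after Kit had overlapping ranges in both groups. Akt2, the lowest, was still at percentile 51.1 of all tested genes.

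**Figure D4:**
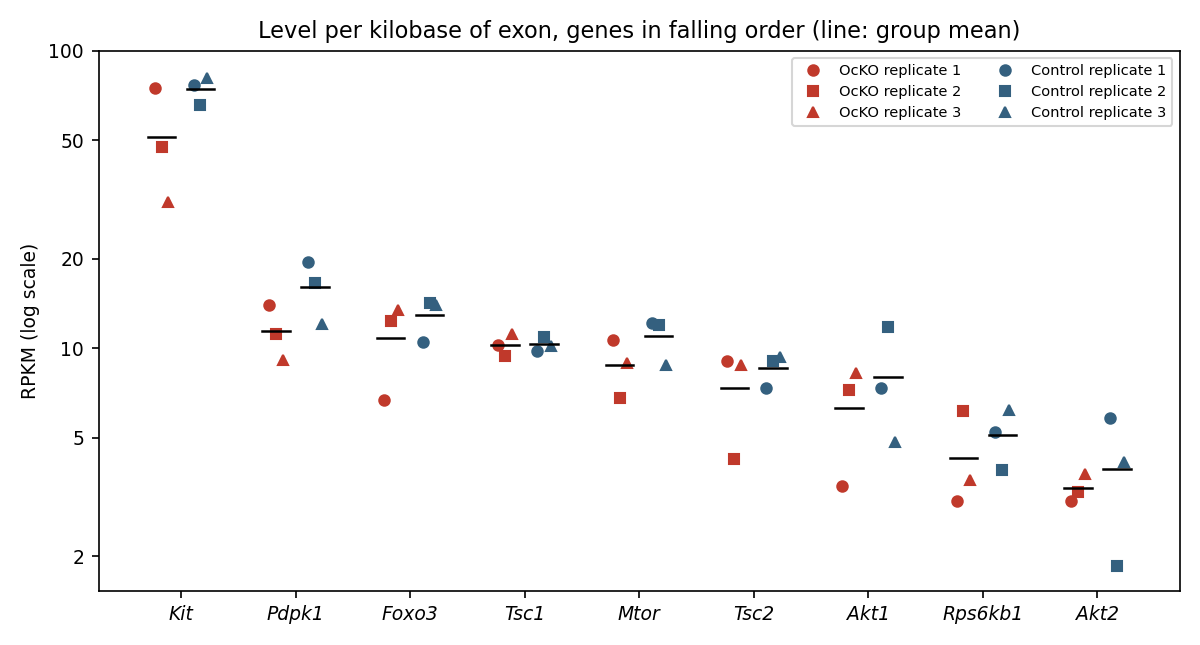
Level per kilobase of exon (RPKM, log axis) of the 9 genes in falling order of their mean over 6 libraries; symbols are libraries, OcKO left of Control, and lines are group means. Kit stands apart at 31.1 to 80.7 RPKM, and the other genes form a series with overlapping neighbours.

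Relatives of some of the 9 genes were present at equal or higher levels per length; these families were chosen after the values were seen. Akt1 lay above Akt2 per length in 6 of 6 libraries. Foxo1, a relative of Foxo3, lay above it in 6 of 6 libraries, at 12.7 to 15.5 RPKM in OcKO and 19.7 to 24.2 RPKM in Control, while Foxo3 was at 10.8 ± 3.62 RPKM in OcKO and 12.9 ± 2.09 RPKM in Control. Pik3cd, the catalytic PI3K subunit best known from white blood cells, held 96.2 ± 0.294% of the RPKM of the class I catalytic genes in OcKO and 97.5 ± 0.627% in Control (SD, n = 3 each). Of the partners in the TSC complex, Tsc1 lay above Tsc2 per length in 6 of 6 libraries. Tsc1 held 59.3 ± 8.43% of their sum in OcKO, with 68.9% in OcKO replicate 2, and 54.7 ± 2.49% in Control. Rps6kb1 held 54.6 ± 1.75% of the sum with its paralog Rps6kb2 in OcKO and 51.6 ± 23.2% in Control.

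The profile over the 6 libraries was compared by the root mean square difference of log2 CPM after centring each gene on its own mean. Among the 9 genes, Pdpk1 and Mtor were each other's nearest, at 0.22, and the nearest to Kit was Pdpk1, at 0.32. Of all tested genes with a regular symbol, Foxn3 (0.07) and Frmd5 (0.15) were nearest to Kit, Carnmt1 (0.10) and Scpep1 (0.12) to Foxo3, and Disc1 and Ep400 (0.09 each) to Mtor. With 6 libraries and 16060 genes, profiles this close are a description of these libraries.

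Another 119 genes of the pathway were grouped by role, of which 105 were tested. edgeR called 0 of the 105. Before adjustment, 3 with a higher level in OcKO and 8 with a lower one had a p under 0.05, or 10.5% beside 11.1% of all tested genes. Their median log2 fold change was 0.02, with 53 genes above 0 and 52 below. The OcKO and Control libraries did not overlap for 6 of the 105 with OcKO above and for 12 with OcKO below. Over all tested genes these shares were 10.7% and 8.67%, or 19.4% together. DESeq2 called 3 higher (Pik3r2, Inpp5d and Rhebl1) and 5 lower (Pik3r1, Deptor, Rictor, Eef2k and Foxo1), where it called 4.84% of all genes with an adjusted p, and limma voom called 0. Pik3r2 and Rictor, and Pik3r4 below, are named outside the naming rule after their values were seen.

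**Figure D5:**
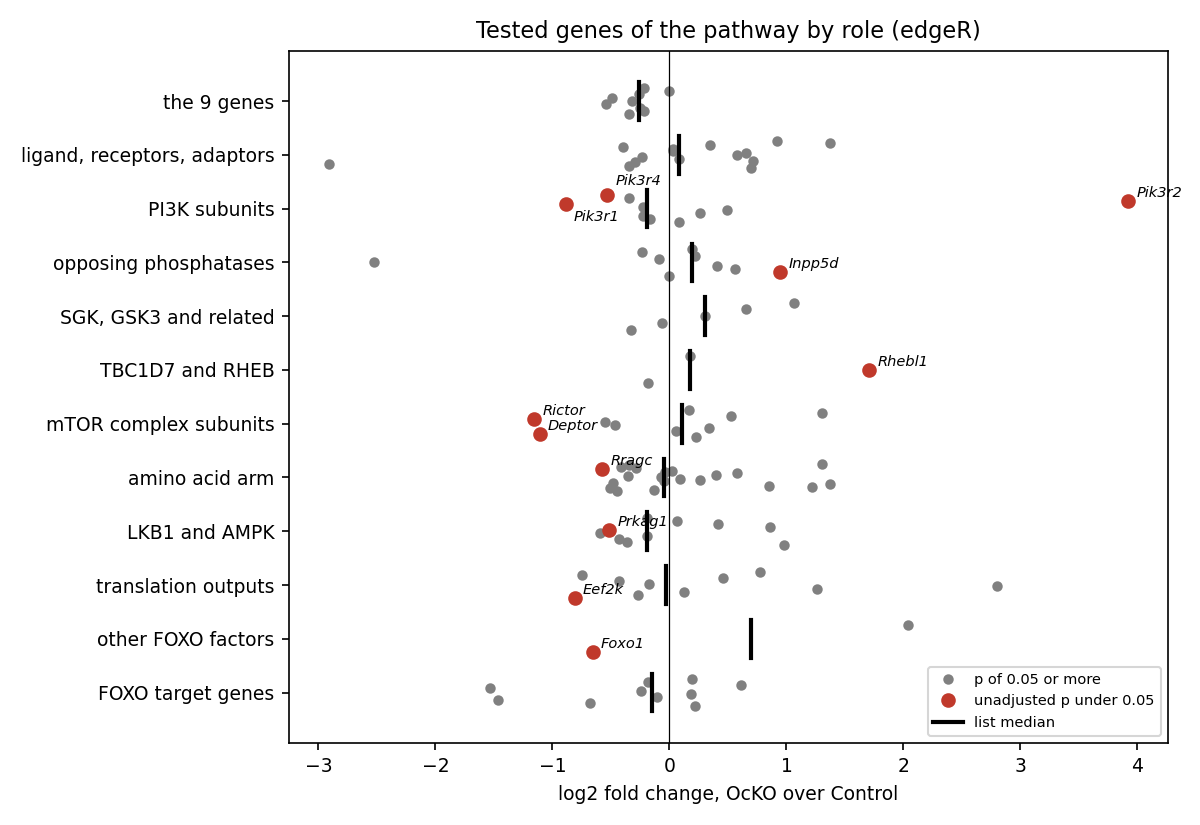
Log2 fold change (OcKO over Control, edgeR) of each tested gene of the pathway, by role; red points with names had an unadjusted p under 0.05, grey points did not, and black bars are list medians. None passed 0.05 after adjustment, and the named genes fall on both sides of 0, from Rictor at -1.16 to Pik3r2 at 3.92.

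Upstream of PI3K, 15 of 17 ligand, receptor and adaptor genes were tested and 0 were called or had an unadjusted p under 0.05 (median log2 fold change 0.08). Kitl, the gene of the KIT ligand, stood at 7.19, 10.3 and 3.77 CPM in OcKO and at 5.98, 0.0264 and 7.52 CPM in Control. Ptpn11, which encodes the phosphatase SHP2 and had the highest RPKM of the list, stood at 155, 68.6 and 144 CPM in OcKO and at 224, 137 and 125 CPM in Control. Sos2, which encodes an exchange factor for RAS and had the smallest p, stood at 11.5, 11.4 and 6.60 CPM in OcKO and at 6.37, 4.22 and 5.01 CPM in Control (edgeR adjusted p = 0.617). For Sos2 the lowest OcKO value exceeded the highest Control value.

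Of the PI3K subunits, 10 of 11 were tested. With a p under 0.05 before adjustment there were 1 with a higher and 2 with a lower level in OcKO, and the median log2 fold change was -0.19. Pik3r1, which encodes the p85-alpha regulatory subunit, stood at 87.1, 70.1 and 63.6 CPM in OcKO and at 139, 109 and 159 CPM in Control (edgeR log2 fold change -0.89 with an SE of 0.22, adjusted p = 0.170). Pik3r2, which encodes p85-beta, stood at 106, 55.7 and 115 CPM in OcKO and at 11.8, 0.158 and 6.31 CPM in Control (log2 fold change 3.92, SE 1.13, adjusted p = 0.235). The groups did not overlap for either gene, with OcKO below Control for Pik3r1 and above it for Pik3r2. Pik3r4, a subunit of the class III PI3K complex, had a log2 fold change of -0.53 (SE 0.17, adjusted p = 0.286). Pik3cd stood at 795, 601 and 675 CPM in OcKO and at 844, 737 and 843 CPM in Control, with overlapping groups (log2 fold change -0.23, SE 0.17).

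Of the phosphatases that oppose PI3K or AKT, 9 of 10 were tested and 1, Inpp5d, had an unadjusted p under 0.05; the median log2 fold change was 0.19. Inpp5d, which encodes the lipid phosphatase SHIP1, stood at 88.1, 79.1 and 99.9 CPM in OcKO and at 33.6, 48.2 and 57.0 CPM in Control (edgeR log2 fold change 0.94 with an SE of 0.26, adjusted p = 0.205). The lowest OcKO value exceeded the highest Control value. Markers of immune cells, where Inpp5d and Pik3cd are best known, summed to 1.53 to 8.81 CPM in OcKO and 4.49 to 14.3 CPM in Control. The part of such cells in the levels of these genes was not tested. Ppp2r1a, a scaffold subunit of protein phosphatase 2A and the highest of the list by RPKM, stood at 224, 161 and 214 CPM in OcKO and at 213, 224 and 271 CPM in Control.

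Among SGK, GSK3 and related kinases, 5 of 6 genes were tested and 0 had an unadjusted p under 0.05 (median log2 fold change 0.30). Sgk1, a kinase related to AKT, stood at 34.1, 19.2 and 30.9 CPM in OcKO and at 22.5, 11.3 and 19.7 CPM in Control (edgeR adjusted p = 0.628). The groups overlapped for Sgk1. Of the third TSC subunit and the RHEB genes, all 3 were tested. Rhebl1, a relative of the GTPase RHEB that TSC switches off, stood at 54.2, 30.0 and 31.2 CPM in OcKO and at 7.39, 7.81 and 20.2 CPM in Control (log2 fold change 1.70, SE 0.50, adjusted p = 0.241). OcKO lay above Control in every library for Rhebl1. Tbc1d7, the third TSC subunit, overlapped between the groups, at 18.5, 34.3 and 25.8 CPM in OcKO and 12.9, 27.3 and 29.5 CPM in Control.

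All 10 other genes of mTORC1, mTORC2 and their assembly factors were tested. Before adjustment, 2 had a p under 0.05, both lower in OcKO, and the list median was 0.11. Deptor, which encodes an mTOR inhibitor held in both complexes, stood at 107, 155 and 91.9 CPM in OcKO and at 307, 227 and 229.9 CPM in Control (edgeR log2 fold change -1.11 with an SE of 0.25, adjusted p = 0.131). Rictor, the defining subunit of mTORC2, stood at 96.7, 174 and 103 CPM in OcKO and at 235, 298 and 299 CPM in Control (log2 fold change -1.16, SE 0.27, adjusted p = 0.137). For both genes every OcKO library lay below every Control library, without passing the adjusted threshold. Rptor, the defining subunit of mTORC1, also named outside the rule, was at 21.2 ± 12.2 CPM in OcKO and 14.7 ± 8.10 CPM in Control and overlapped between the groups. Mapkap1, an mTORC2 subunit and the highest of the list by RPKM, stood at 187, 199 and 160.1 CPM in OcKO and at 186, 169.6 and 171 CPM in Control.

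In the amino acid arm, which recruits mTORC1 to the lysosome, 21 of 22 genes were tested and 1 had an unadjusted p under 0.05 (median log2 fold change -0.05). That gene was Rragc, a RAG GTPase, at 123, 156 and 182 CPM in OcKO and 283, 195 and 209 CPM in Control (edgeR log2 fold change -0.58 with an SE of 0.23, adjusted p = 0.401). Rraga, its partner class of RAG GTPase, stood at 350.2, 326 and 244 CPM in OcKO and at 297, 297 and 351 CPM in Control, with overlapping groups. In the LKB1 and AMPK energy arm, which restrains mTORC1, 10 of 11 genes were tested and 1 had an unadjusted p under 0.05 (median -0.19). That gene was Prkag1, an AMPK gamma subunit, at 51.7, 39.7 and 49.2 CPM in OcKO and 60.0, 74.2 and 67.2 CPM in Control (adjusted p = 0.448). Of its exonic bases, 44.6% overlap B130046B21Rik on the opposite strand, which held 433 counts over the 6 libraries against 13392 for Prkag1. Prkab1, an AMPK beta subunit, stood at 230.4, 163 and 288 CPM in OcKO and at 275, 212 and 293 CPM in Control.

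Downstream of mTORC1, 10 of 12 S6 kinase and translation genes were tested and 1 had an unadjusted p under 0.05 (median log2 fold change -0.03). Eef2k encodes the kinase that slows translation elongation and that S6 kinase inhibits; it had the smallest adjusted p of all 105 genes. It stood at 376, 434 and 418 CPM in OcKO and at 709, 683 and 761 CPM in Control (by edgeR, log2 fold change -0.81, SE 0.15, adjusted p = 0.1196). Every OcKO library lay below every Control library, and each group was narrow. Eif4b, an initiation factor phosphorylated by S6 kinase, stood at 310.5, 246 and 284 CPM in OcKO and at 339, 320.2 and 353 CPM in Control, with no overlap (log2 fold change -0.27, SE 0.16, adjusted p = 0.633).

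Of the other FOXO genes, Foxo1 and Foxo6 were tested. Foxo1 stood at 109.8, 119 and 134 CPM in OcKO and at 209.8, 192 and 170.3 CPM in Control, with no overlap (edgeR log2 fold change -0.66 with an SE of 0.18, adjusted p = 0.203). Of 14 textbook FOXO target genes, 10 were tested and 0 had an unadjusted p under 0.05 (median log2 fold change -0.15). Txnip, which encodes a thioredoxin-binding protein, was the most abundant by RPKM and had the smallest p of that list, at 1180.4, 1598 and 1509 CPM in OcKO and 1251, 1193 and 1313 CPM in Control (adjusted p = 0.771). The groups overlapped for Txnip, and 19.4% of its exonic bases overlap Gm15441 on the opposite strand.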

How the data were processed

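Whole-gene RNA-seq was done on 6 libraries of GV oocytes, 3 OcKO and 3 Control. The authors deposited raw counts per gene, as a table and as 1 file per sample, which differed in 0 values. The tools named in the submitters' processing notes are Trimmomatic 0.36, STAR 2.5.2b and, for the counts, featureCounts from the Subread package (1.5.2), with GRCm38 as build. Not given in the sources used here are the gene annotation used, whether strand was counted and how reads matching several places were handled.

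OcKO was compared with Control in R 4.3.3 with edgeR 4.0.16 and its quasi-likelihood test (filterByExpr, TMM scaling, Benjamini-Hochberg over 16060 genes). The SE of a log2 fold change is its size divided by the root of F, and 95% intervals use the fit's t distribution. CPM are TMM-scaled and RPKM divide them by the exonic length in the deposited files. Intervals and counting errors are not corrected for PCR copies, which cannot be seen without molecular identifiers. Counts of any 2 libraries differed by far more than sampling noise (chi-square per degree of freedom of 114.5 or more), so none was a duplicate. Summed marker levels of 7 cell type lists were compared by exact two-sided permutation tests, which cannot give a p under 0.1 with 3 against 3; they gave 0.2 for oocyte, 0.4 for granulosa and cumulus, 0.8 for theca and stroma, 0.5 for immune, 1 for mast cell, 0.5 for endothelial and 0.3 for erythrocyte markers (0.7 or more when adjusted over the lists). Each library is 1 mouse by its title, so the spread holds that between animals, oocyte pools and library preparation.

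The 9 genes and the lists were chosen with earlier results of these data known. Named are the 9 genes, and in each of 11 lists up to 3 called genes or, with none called, the gene with the smallest p and the one with the highest RPKM. Castor1 and Castor2 were matched as Gatsl3 and Gatsl2 through RefSeq synonyms. Alternatives were DESeq2 1.42.0, limma 3.58.1 voom, RLE size factors, library size alone, no low-count filter, a minimum mean of 5 CPM, a replicate block and leaving out each library. The scripts were tested on simulated data. Some genes of the lists are counted but not reported here.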

Additional observations from a re-analysis of the deposited data

How the results depend on the processing

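The calls among the 9 genes were 0 higher and 0 lower in each of the 13 alternatives, and their median log2 fold change lay between -0.33 and -0.10. Without 1 library, 0 to 2 of the 9 had an unadjusted p under 0.05: Kit and Pdpk1 without OcKO replicate 1 and Pdpk1 without Control replicate 3. Calls over all tested genes were 22 higher and 1 lower, and were 480 and 275 by DESeq2, 0 higher by limma voom, 62 and 8 at a minimum mean of 5 CPM, and 0 to 4 higher and 0 to 2 lower without 1 library. Pathway genes called were 3 higher and 5 lower by DESeq2. With the replicate block, the calls over all genes were 0 higher and 0 lower and the smallest adjusted p of the 9 genes was 0.593. The labels do not say whether mice of the same number were paired. Deviations of same-numbered libraries from their group means correlated at -0.04, -0.04 and -0.04 over genes. No OcKO library correlated best with the Control library of its own number. These correlations cannot decide on pairing, because deviations from a mean of 3 libraries cancel out, which ties the values to each other. The depth of 500 or more counts per gene and library leaves a counting error of 4.47% or less for the 9 genes. The spread between libraries holds animals, oocyte pools and library preparation together, which cannot be told apart here. Why the counts of calls moved was not tested.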

Other observations

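Several genes of the pathway were at or close to 0 in these oocytes, named after their values were seen. Irs1 and Irs2, adaptors of the insulin and IGF1 receptors, reached 0.949 and 0.0864 CPM at most over the 6 libraries. Foxo4 and Tfeb, a lysosomal transcription factor that mTORC1 holds in the cytoplasm, reached 0.185 and 0.861 CPM at most. Eif4ebp3, a translation repressor gene, had no counts.

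Some low genes had large log2 fold changes that the test did not call. Gab1, a docking protein downstream of receptor tyrosine kinases, stood at 0.0228, 2.20 and 0.0246 CPM in OcKO and at 12.9, 0 and 4.06 CPM in Control (log2 fold change -2.91, SE 2.32, edgeR adjusted p = 0.739). Phlpp1, a phosphatase that removes an AKT phosphate, stood at 0.0228, 1.96 and 3.50 CPM in OcKO and at 12.4, 12.1 and 7.03 CPM in Control (log2 fold change -2.52, SE 1.29, adjusted p = 0.547). For Phlpp1 every OcKO library lay below every Control library. Its unadjusted p was 0.0295 by DESeq2 (adjusted p = 0.256) and 0.0195 by limma voom (adjusted p = 0.271). Eif4ebp2, a translation repressor that mTORC1 inhibits, stood at 2.90, 0.726 and 3.79 CPM in OcKO and at 0.0276, 0.738 and 0.288 CPM in Control (log2 fold change 2.80, SE 1.31, adjusted p = 0.497).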
